A study of Homo sapiens with 12 samples.

Results

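The cyclin-dependent kinase (CDK) inhibitors are the proteins that brake the kinases driving the cell division cycle. They were followed here by 8 listed genes, CDKN1A, CDKN1B, CDKN1C, CDKN2A, CDKN2B, CDKN2C, CDKN2D and CDKN3, through every array probe annotated to those symbols. They were matched by 12 of the 38220 probes of the authors' value table, for 7 of the 8 genes out of 18810 named on it. CDKN2C is not analysed here. Each probe reports a normalized intensity, which can be compared between arrays but not between probes.

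The cells were A375, an established human melanoma line, and all arrays came from that 1 line. They were exposed to ciclopirox, an antifungal drug that chelates iron, to crizotinib, an inhibitor of the MET and ALK receptor tyrosine kinases, or to the DMSO vehicle. Each drug was given at its 75% inhibitory concentration, as determined at 72 h. There were 12 arrays. Cells given 8 h of ciclopirox and cells given 8 h of crizotinib had 3 each, while the vehicle and the 24 h exposures to either drug had 2 each. When the controls were harvested is not stated, so the same 2 control arrays served both times and all 4 comparisons with control share them. With no vehicle group labelled for each time, a change from 8 h to 24 h within a drug cannot be told apart from time in culture. The same holds for a difference from control at a time that the controls do not match. The titles number the arrays of a group without saying that they came from separate cultures, so a p-value here measures array-to-array spread, part or all of which may be technical.

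CDK inhibitors fall into families that act on different kinases. The CIP/KIP proteins p21 (CDKN1A), p27 (CDKN1B) and p57 (CDKN1C) bind CDK complexes with cyclins A, E and D and hold back the entry into and passage through DNA synthesis. The INK4 proteins p15 (CDKN2B), p16 (CDKN2A), p18 (CDKN2C) and p19 (CDKN2D) bind CDK4 and CDK6 alone and keep them from cyclin D, which leaves the retinoblastoma protein active. CDKN3 is a phosphatase that removes the activating phosphate of CDK2 and CDK1, and its own transcript is cell cycle regulated. p21 is the classic p53 target gene, p27 is controlled largely by protein degradation, and the CDKN2A locus is often lost or mutated in melanoma. Transcript levels do not show the amounts of these proteins.

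Promoter sequences are given for the 3 members that changed against control, because their transcripts moved at different times. Each run holds the 250 bases before the gene's annotated start, from RefSeq on GRCh38.p14, 5′ to 3′. Of the 8 listed genes 7 had an entry, some with more than 1 start, which made 10 windows. Capitals mark the GC box (GGGCGG, the binding motif of SP1) in CDKN1A, the CCAAT box (CCAAT, bound by NF-Y) in CDKN1B, and the CCAAT box with the cell cycle homology region (CHR, TTTGAA) in CDKN3. Both strands were searched, so the CHR of CDKN3 stands as TTCAAA and 1 of its CCAAT boxes as ATTGG.
CDKN1A, chr6:36678464-36678713, plus strand: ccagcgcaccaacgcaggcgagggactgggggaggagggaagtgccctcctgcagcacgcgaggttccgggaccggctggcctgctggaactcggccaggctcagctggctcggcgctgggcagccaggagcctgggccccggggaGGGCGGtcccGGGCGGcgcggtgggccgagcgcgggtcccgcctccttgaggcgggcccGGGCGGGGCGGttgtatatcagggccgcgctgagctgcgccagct
CDKN1B, chr12:12717118-12717367, plus strand: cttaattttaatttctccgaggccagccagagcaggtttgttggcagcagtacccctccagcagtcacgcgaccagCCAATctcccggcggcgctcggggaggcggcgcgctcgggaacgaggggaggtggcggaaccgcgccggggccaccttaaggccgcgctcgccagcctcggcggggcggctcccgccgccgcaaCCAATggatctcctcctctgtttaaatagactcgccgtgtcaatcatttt
CDKN3, chr14:54396757-54397006, plus strand: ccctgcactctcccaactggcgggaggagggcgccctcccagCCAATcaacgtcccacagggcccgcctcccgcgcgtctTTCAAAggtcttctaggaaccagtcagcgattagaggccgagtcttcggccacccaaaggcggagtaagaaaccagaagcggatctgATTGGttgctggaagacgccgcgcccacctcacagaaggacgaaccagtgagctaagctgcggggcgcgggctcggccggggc

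The CDKN1A window held 4 GC boxes, the last 2 overlapping by their end base, and no CCAAT box or CHR. The CDKN1B window held 2 CCAAT boxes and 1 GC box. The CDKN3 window held 2 CCAAT boxes and 1 CHR, a motif of genes expressed late in the cell cycle, and no GC box. It was the 1 window of the 10 with a CHR. Over the 35116 promoter windows of the same length, 42.6% held a GC box, 32% a CCAAT box and 13.3% a CHR. The p53 decamer and the FOXO core motif (GTAAACA) were in none of the 10 windows, against 5.57% and 2.98% of all windows. These matches describe letters in these windows only.

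The deposited scanner table and the value table named different samples, so the results rest on the value table's names. Over 12902 probes each set of values tracked a single scanner column, with r between 0.935 and 0.984 and no other column above 0.844. That column was the one its sample's description names for the 2 controls only. By correlation, 12 of 12 arrays had a group mate as their nearest array when named as in the value table, but only 7 of 12 when named by description. For CDKN1A the highest scanner signals, 205 and 227, were in columns described as ciclopirox 8 h replicates 1 and 2. With those names CDKN1A was higher at 8 h of ciclopirox (log2 2.32, limma adjusted p = 0.0485) and differed by -0.44 at 24 h of crizotinib (adjusted p = 0.731). Every CDKN1A result below holds for the value table's names.

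The line is named by the sample titles, and cell type markers were read beside that name. Of 9 melanocyte lineage markers 7 had a probe and 2 were tested. The lineage factor SOX10 was above background on all arrays, and the pigment cell genes MLANA, S100B, TYR and TYRP1 on none. The summed intensity of the 2 tested was 3542 to 3661 in control, 2368 to 2449 and 2252 to 2560 at 8 h of ciclopirox and crizotinib, and 3783 to 3870 and 3699 to 3864 at 24 h. Of the 2, 1 was called lower than control at 8 h of either drug. Of all tested genes 5.43% were lower with ciclopirox and 4.13% with crizotinib at that time. All 4 keratinocyte markers with a probe were below background throughout. The sum of the 3 tested fibroblast markers was 135 to 139.5 in control, 150.9 to 151.6 at 8 h of crizotinib and 181 to 214 at 24 h. Against control 1 of the 3 was called higher at 8 h of crizotinib (3.45% of all tested genes) and 1 at 24 h (14.2%). None was called with ciclopirox. LUM was above background on all arrays and COL1A2 and COL3A1 on none. The 1 tested leukocyte marker, CD14, read 29.3 to 34.0 in control and 51.4 to 53.3 at 24 h of crizotinib. It was called higher there, as were 14.2% of all tested genes. PTPRC and CD3E were below background on all arrays. The part of these shifts in the results was not tested.

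Before any test, 8 of the 12 probes, covering all 7 genes, passed a filter on detection. The filter required the scanner's detection p-value to be below 0.01 for 2 or more arrays and retained 16563 probes. Background was set per array at the level under which 99% of the never-detected probes lay, between 38.4 and 42.6. Limma tested the log2 values of all 16563 probes in 9 comparisons, two-sided, with Benjamini-Hochberg adjustment, and a change was called at an adjusted p under 0.05. The 4 probes that did not pass stayed between 16.9 and 41.3 and were not above background on any array. They were 2 probes of CDKN2A, 1 of CDKN2B and 1 of CDKN2D. CDKN1A passed through 4 detected arrays. By the scanner columns that the values track, these are the 4 arrays at 24 h. Its being tested thus already required a raised signal at 24 h, where it was later called higher. Its p-values at 24 h are therefore not free of the filter.

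CDKN1A, which encodes p21, was not above background in control cells and rose after 24 h of either drug, most after crizotinib. Its intensity was 30.0 and 26.7 on the control arrays, 37.0, 25.2 and 22.45 at 8 h of ciclopirox and 24.8, 26.5 and 25.1 at 8 h of crizotinib. At 24 h it was 68.0 and 46.2 with ciclopirox and 240.2 and 225 with crizotinib. All 8 control and 8 h arrays lay below the background threshold, all 4 arrays at 24 h lay above it, and the 24 h arrays of the drugs did not overlap.

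At 24 h of crizotinib CDKN1A was at least 5.88-fold higher than control (limma adjusted p = 1.67e-05), a bound because control was not above background. The fitted log2 difference was 3.04 ± 0.22 (SE, n = 2 against 2). With ciclopirox at that time it was at least 1.42-fold higher (fitted log2 0.99 ± 0.22, adjusted p = 0.0276). That call was lost without control replicate 1, control replicate 2 or ciclopirox 24 h replicate 1, and its adjusted p ranged from 0.0151 to 0.127 over the alternatives on the value table, to which all such ranges refer. Without the detection filter the ciclopirox difference was not called (limma adjusted p = 0.0824), nor in a fit of only the groups compared (0.1). With both groups above background, crizotinib stood 4.15-fold above ciclopirox at 24 h (log2 2.05 ± 0.22, adjusted p = 0.000193). The ciclopirox intensities of 68.0 and 46.2 lay close to their thresholds of 38.5 and 39.6. At 8 h neither drug gave a level above background, so no difference was detectable there. In such bulk RNA a change in the share of cells that express a gene and in its RNA per cell cannot be told apart.

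Over time, CDKN1A was at least 5.55-fold higher at 24 h than at 8 h of crizotinib (adjusted p = 5.35e-06). The same step under ciclopirox was at least 1.38-fold (adjusted p = 0.00897), and without ciclopirox 24 h replicate 1 it was not called (adjusted p = 0.0812, range over alternatives 0.0035 to 0.0812). With the 95th percentile as background threshold, CDKN1A at 24 h of crizotinib was at least 6.90-fold above 8 h and 7.17-fold above control. At 24 h of ciclopirox it was then at least 1.73-fold above control. Its step from 8 h of ciclopirox had no bound, because that group was then not wholly below background. In order of level, crizotinib at 24 h came first and ciclopirox at 24 h second, and the other 3 groups cannot be ordered.

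CDKN1B, which encodes p27, had the opposite timing. It was called higher than control at 8 h of crizotinib on probe ILMN_1722811 but not on its other probe. On probe ILMN_1722811 its intensity was 299.6 and 279.8 in control and 313, 350.5 and 271 at 8 h of ciclopirox. It was 298 and 456 at 24 h of ciclopirox. With crizotinib it was 630.1, 677 and 620.2 at 8 h and 299 and 321 at 24 h. The 3 arrays of crizotinib at 8 h stood above all 9 others, and the remaining groups overlapped with control.

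After 8 h of crizotinib this probe was 2.22-fold higher than control (log2 1.15 ± 0.17, SE, n = 3 against 2, limma adjusted p = 0.00512) and 2.07-fold higher than with ciclopirox at the same time (adjusted p = 0.00315). By 24 h of crizotinib it had fallen by 1.05 on the log2 scale (adjusted p = 0.000942), to 0.10 ± 0.18 above control (adjusted p = 0.739). Ciclopirox gave 0.10 ± 0.17 at 8 h (adjusted p = 0.761) and 0.35 ± 0.18 at 24 h (adjusted p = 0.266). The ciclopirox 24 h arrays were the most scattered, and without replicate 1 the difference from control was 0.66 (adjusted p = 0.0477).

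The other CDKN1B probe, ILMN_2196347, gave a smaller difference. It read 117 and 184 in control, 166, 103 and 100.3 at 8 h of ciclopirox and 99.7 and 107 at 24 h. With crizotinib it read 167, 172 and 189 at 8 h and 75.4 and 129 at 24 h. The 8 h crizotinib values overlapped with control, and the log2 difference from control was 0.26 ± 0.27 (adjusted p = 0.605), so the rise at 8 h was not called on this probe. The fall from 8 h to 24 h of crizotinib was called (-0.83 ± 0.27, adjusted p = 0.0381), without overlap of the groups. It was lost when any of the 3 arrays at 8 h or crizotinib 24 h replicate 1 was left out (adjusted p up to 0.332, range over alternatives 0.0151 to 0.332). Across the 12 arrays the probes of CDKN1B correlated with r = 0.53, as a description of arrays that share a line, a chip and their groups.

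CDKN1C, which encodes p57, was near background throughout. It was above the threshold on 2 of 12 arrays, 43.1 on control replicate 1 and 57.0 on crizotinib 24 h replicate 2, and its other 10 values lay between 25.6 and 37.15. No comparison called it. Without crizotinib 24 h replicate 1, which leaves the array with the highest value as the lone one at 24 h, it was called higher at 24 h than at 8 h of crizotinib (adjusted p = 0.0328) and than at 24 h of ciclopirox (adjusted p = 0.0259).

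Among the INK4 genes, CDKN2A was close to background and highest at 24 h of crizotinib. Its measurable probe is annotated to the p16 transcript, and it was above background on 11 of 12 arrays. It read 44.3 and 52.7 in control, 44.9, 42.4 and 49.7 at 8 h of ciclopirox and 51.0 and 61.4 at 24 h. With crizotinib it read 62.3, 38.0 and 57.1 at 8 h and 99.9 and 64.8 at 24 h. Both arrays at 24 h of crizotinib were above all 10 others, but they differed from each other by more than the control arrays did.

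The log2 difference of CDKN2A at 24 h of crizotinib was 0.74 ± 0.25 against control, just short of a call (adjusted p = 0.0522), and 0.65 ± 0.23 against 8 h of crizotinib, just past it (adjusted p = 0.0496). Without crizotinib 24 h replicate 1 the latter was 0.34 (adjusted p = 0.389, range over alternatives 0.023 to 0.389). Leaving out crizotinib 8 h replicate 2 (0.43, adjusted p = 0.136) or replicate 3 (adjusted p = 0.0569) also ended the call. So did median-centred arrays (adjusted p = 0.0589), no detection filter (0.114) and a fit of only the groups compared (0.125). The difference from control was called without crizotinib 24 h replicate 2 (1.05, adjusted p = 0.026) and with log2(value + 32) (adjusted p = 0.027). The probe annotated to the transcript of ARF, the p53-stabilizing protein that shares the locus, stayed between 16.9 and 22.1, and the probe of a further CDKN2A transcript between 17.9 and 23.7. Neither was above background on any array.

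CDKN2B, the neighbour of CDKN2A, was above background on 2 of 12 arrays, at 41.1 on ciclopirox 8 h replicate 3 and 41.5 on crizotinib 24 h replicate 1. Its tested probe ranged from 22.2 to 41.5 and was called in no comparison. The other probe, which was not tested, ranged from 20.6 to 38.2.

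CDKN2D, which encodes p19, was above background on all arrays and higher at 8 h than at 24 h of crizotinib. It read 305 and 329 in control, 292, 252 and 242 at 8 h of ciclopirox and 278 and 292 at 24 h. With crizotinib it read 369, 336 and 353 at 8 h and 268 and 250.2 at 24 h. The 3 arrays of crizotinib at 8 h were above all others, and all 7 remaining treated arrays were below both controls. None of the differences from control was called, with log2 values of -0.28 and -0.15 at 8 h and 24 h of ciclopirox and 0.15 and -0.29 at those times of crizotinib (adjusted p from 0.0834 to 0.438).

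Between treatments CDKN2D was called. It fell by 0.44 ± 0.10 on the log2 scale from 8 h to 24 h of crizotinib (adjusted p = 0.00747), a call lost only without crizotinib 24 h replicate 2 (adjusted p = 0.0592, range over alternatives 0.00435 to 0.0592) among the 5 arrays left out. At 8 h it was 1.35-fold higher with crizotinib than with ciclopirox (log2 0.43 ± 0.09, adjusted p = 0.0202). That call was lost without ciclopirox 8 h replicate 2 or 3 or crizotinib 8 h replicate 1 or 3 (range over alternatives 0.0106 to 0.101).

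CDKN3 was bright on every array and moved in both directions under crizotinib. Its intensity was 909 and 948 in control, 1224, 1068 and 1092 at 8 h of ciclopirox and 824 and 964 at 24 h. With crizotinib it was 1300, 1484 and 1434 at 8 h and 567 and 618 at 24 h. The 8 h arrays of both drugs were above control, the 24 h arrays of crizotinib below every other array, and only ciclopirox at 24 h overlapped with control.

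After 8 h of crizotinib CDKN3 was 1.51-fold higher than control (log2 0.60 ± 0.11, SE, n = 3 against 2, limma adjusted p = 0.012). Without control replicate 1 or control replicate 2 the call was lost (adjusted p = 0.0914 and 0.0631, range over alternatives 0.00334 to 0.0914). By 24 h it was 1.57-fold lower than control (log2 -0.65 ± 0.12, adjusted p = 0.00277). The fall from 8 h to 24 h, 2.37-fold, had an adjusted p of 2.5e-05. Ciclopirox gave differences from control of 0.28 ± 0.11 at 8 h (adjusted p = 0.134) and -0.06 ± 0.12 at 24 h (adjusted p = 0.81). Between the drugs at 8 h the difference was 0.32 ± 0.10 (adjusted p = 0.0728). At 24 h CDKN3 was 1.51-fold lower with crizotinib than with ciclopirox (adjusted p = 0.00604), a call lost without ciclopirox 24 h replicate 2 (adjusted p = 0.0502) or crizotinib 24 h replicate 1 (adjusted p = 0.0508), with a range over alternatives of 0.00198 to 0.0562.

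**Figure D1:**
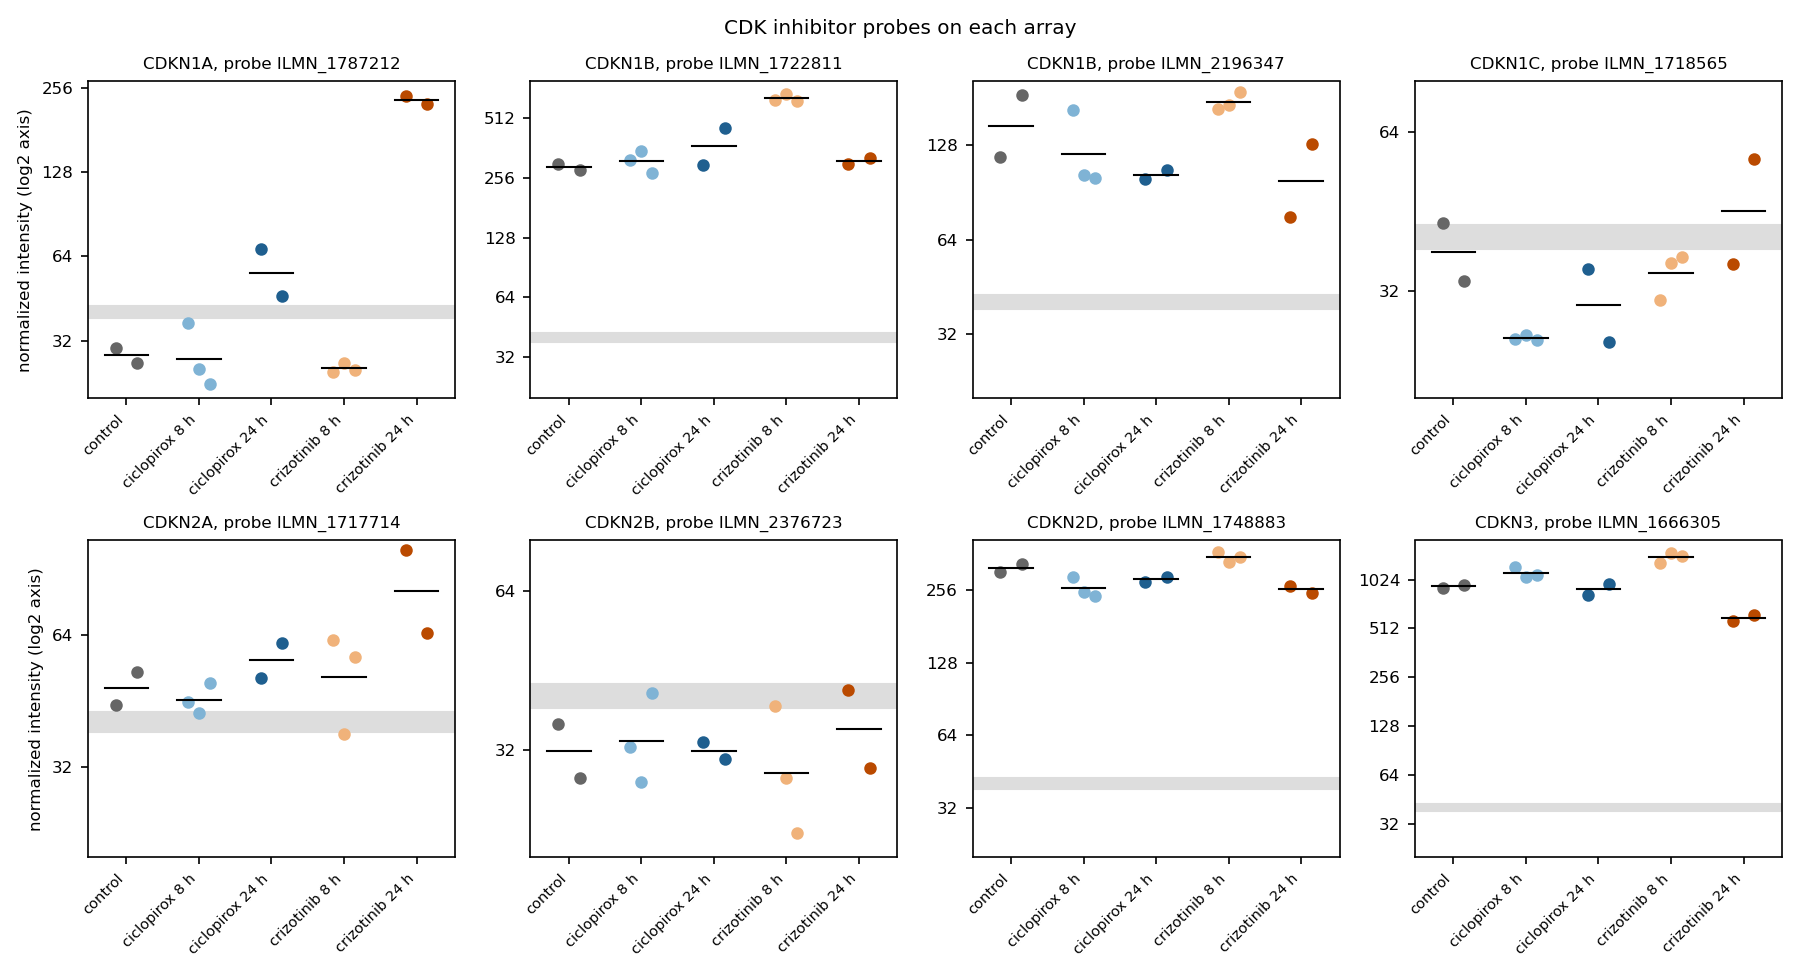
Normalized intensity of the 8 tested CDK inhibitor probes on each of the 12 arrays (log2 axis), by group. Points are arrays, black lines are means of the log2 values, and the grey band spans the background thresholds of 38.4 to 42.6. CDKN1A rises above the band only at 24 h. The 3 arrays of crizotinib at 8 h are the highest for CDKN1B probe ILMN_1722811, for CDKN2D and for CDKN3.

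As a family the CDK inhibitors did not move one way. After 8 h of ciclopirox 0 of the 8 probes were called by limma, where 7.84% of all probes were, and 3 of the 8 (CDKN1C, CDKN2D and CDKN3) had an unadjusted p under 0.05, as did 25.4% of all probes, with CDKN1C not above background at that time. After 24 h of ciclopirox 1 was called higher, CDKN1A, against 3.95% of all probes called higher. After 8 h of crizotinib 2 were higher, CDKN1B on probe ILMN_1722811 but not on its other probe, and CDKN3, against 3.58%. After 24 h of crizotinib 1 was higher, CDKN1A, against 13.0%, and 1 was lower, CDKN3, against 12.9%. The median log2 difference of the 8 probes was -0.06 and -0.03 at 8 h and 24 h of ciclopirox and 0.12 at both times of crizotinib. Over all 16563 probes it lay between -0.01 and 0.00. Several of the member values compare groups not above background. With a bound or no change in their place, over 1 probe for each of the 7 genes, the median was 0 at both times of ciclopirox. It was 0.09 at 8 h and 0.10 at 24 h of crizotinib.

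**Figure D2:**
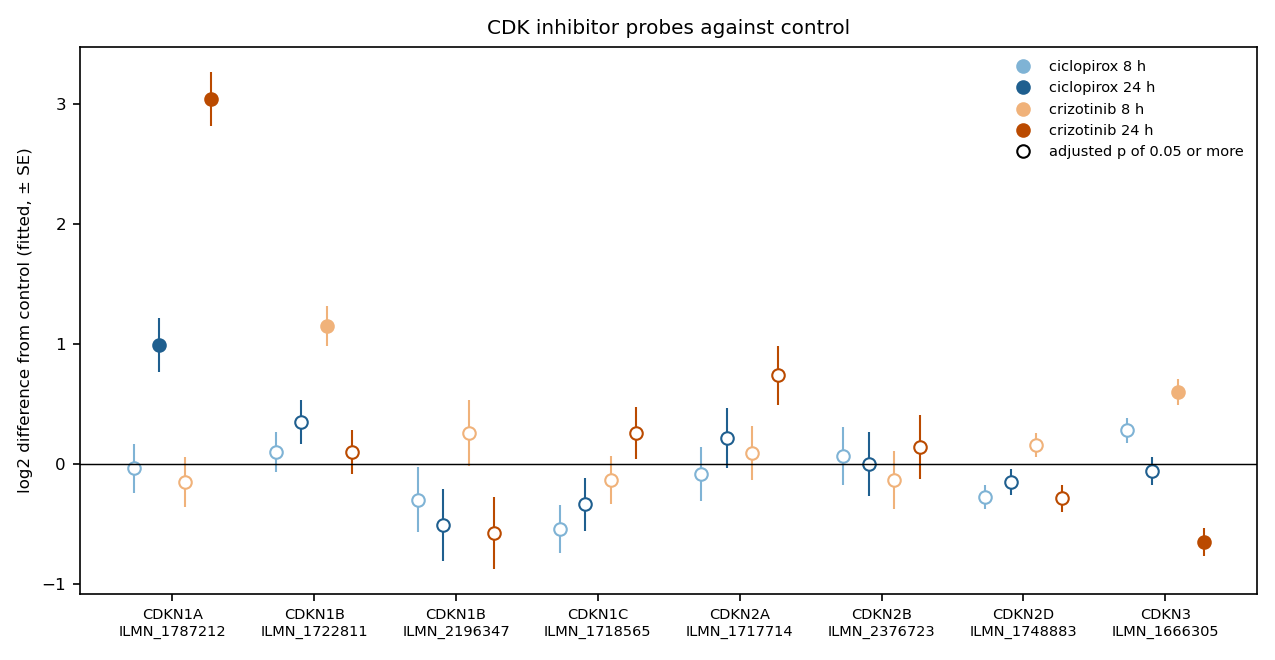
Fitted log2 difference from control (± SE) of each tested CDK inhibitor probe after 8 h and 24 h of each drug. Filled points have an adjusted p under 0.05. CDKN1A at 24 h of crizotinib (3.04) stands highest, with its control not above background, and CDKN3 at 24 h of crizotinib (-0.65) lowest among the filled points.

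The change from 8 h to 24 h compares no control array, although the controls enter the shared estimate of the spread. Under ciclopirox 1 of the 8 probes was called higher, CDKN1A, against 8.91% of all probes. Under crizotinib 6 of 8 were called, where 33.3% of all probes were. CDKN1A and CDKN2A were higher (17.4% of all probes) and both CDKN1B probes, CDKN2D and CDKN3 lower (15.9%). Between the drugs at 8 h, CDKN1B (probe ILMN_1722811) and CDKN2D were higher with crizotinib, 2 of 8 against 3.51%. At 24 h CDKN1A was higher and CDKN3 lower with crizotinib, 2 of 8 against 19.9% called in either direction. The change over time itself differed between the drugs for 4 of the 8, against 8.20% of all probes, with CDKN1A more positive under crizotinib (3.88% of all probes), its 8 h levels below background under both drugs, and CDKN1B probe ILMN_1722811, CDKN2D and CDKN3 more negative (4.32%).

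The genes that work with the inhibitors were read from lists of 1 probe a gene, that of the highest mean, over 10330 genes. Of all these genes 3.29% rose and 5.43% fell at 8 h of ciclopirox, 4.13% and 3.50% at 24 h, and 3.45% and 4.13% at 8 h of crizotinib. Of 11 tested CDK and cyclin genes 7 fell and 1 rose at 24 h of crizotinib, with a median log2 difference of -0.57, where 14.1% of all genes fell and 14.2% rose (median 0.01). The falls were led by the mitotic kinase CDK1 (-1.34 ± 0.12, SE, n = 2 against 2, limma adjusted p = 5.42e-05), the S phase cyclin CCNA2 (-1.17) and the mitotic cyclin CCNB1 (-0.94). The riser was CCNA1, a cyclin best known from germ cells (1.05). Under ciclopirox at 24 h CCNB1 (-0.88) and CCNA2 (-0.67) fell and CCNA1 (0.87) rose. With crizotinib at 8 h CCNA1 rose by 1.77 and the G1 cyclin CCNE1 fell by 0.70 on the log2 scale, and at 8 h of ciclopirox none of the 11 was called.

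Genes for the turnover of the inhibitors fell at 24 h of crizotinib, 8 of 13 with none higher and a median of -0.53, against 14.1% of all genes lower. The falls are of transcripts. The genes that fell included DTL, the adaptor through which CUL4 ligase marks p21 (-1.59 ± 0.17, adjusted p = 0.000128), and SKP2 and CKS1B, which together mark p27 for destruction (-0.74 and -0.65). CDC20, an activator of the anaphase-promoting complex, was lower as well (-0.78). With crizotinib at 8 h CKS1B (0.57) and its relative CKS2 (0.54) rose and the other 11 were not called. With ciclopirox at 24 h CDC20 (-0.67) and CKS2 (-0.57) fell, and at 8 h none was called.

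Among 10 tested pocket protein and E2F genes, 4 fell and 1 rose at 24 h of crizotinib (median -0.36), against 14.1% and 14.2% of all genes. E2F8 (-0.63), 1 of the 4 falls, was not above background in either group, and with it set to no change the median was -0.18. E2F2, an activator of S phase genes, fell most (-1.78 ± 0.13, adjusted p = 1.67e-05), and E2F3 and E2F7 fell by 0.53 and 0.47 on the log2 scale. RBL2, the pocket protein of resting cells, rose by 0.54. With ciclopirox at 24 h E2F2 (-0.86) and E2F3 (-0.47) fell and E2F7 (0.56) and RBL2 (0.48) rose. E2F7, a repressor that is itself a p53 target, also fell at 8 h of crizotinib (-0.49) and at 24 h was lower with crizotinib than with ciclopirox (-1.03, adjusted p = 9.87e-05), and none of the 10 was called at 8 h of ciclopirox.

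Other p53 targets were higher at 24 h, as CDKN1A was. Of 17 tested, 14 rose at 24 h of ciclopirox (median 0.92) and 16 at 24 h of crizotinib (median 1.23), with none lower. Of all genes 4.13% and 14.2% rose in these comparisons. At 8 h TIGAR rose (0.45) and SESN1 fell (-0.50) with ciclopirox, and SESN1 fell (-0.46) with crizotinib. MDM2, the ligase that restrains p53, was at least 2.35-fold higher at 24 h of ciclopirox and at least 3.83-fold at 24 h of crizotinib. The stress cytokine GDF15 was at least 11.0-fold and 12.4-fold higher. MDM2 and GDF15 are given as bounds because control was not above background. Of the 17, 4 had a group not above background in each of these 2 comparisons. Such genes can pass the detection filter through the arrays where they are high. Their calls at 24 h are thus not free of the filter, as for CDKN1A. TP53INP1, a stress-induced partner of p53, rose by 1.30 and 2.47 on the log2 scale. Between the drugs at 24 h, where control arrays enter only the estimate of the spread, 9 of the 17 were higher with crizotinib (11.2% of all genes). Among them were ZMAT3 (1.17), TP53INP1 (1.17) and SESN1 (0.92), and SESN2 was lower (-1.31, 10.6% of all genes lower). GDF15 differed by 0.17 ± 0.20 (adjusted p = 0.604). The rise of this list at 24 h was already known when the list was written, so it is no independent evidence, and the comparisons with control share their control arrays with CDKN1A.

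Of 16 tested regulators of CDK inhibitor transcription, 5 rose and 4 fell at 24 h of crizotinib, with a median of -0.04. Among all genes 14.2% rose and 14.1% fell. FOXO1, a factor that induces CDKN1B, rose by 1.34 ± 0.27 (adjusted p = 0.0054) at 24 h. ETS2, an inducer of CDKN2A, and SMAD3, which carries the TGF-beta signal to CDKN2B, fell by 0.98 and 0.88 on the log2 scale. With crizotinib at 8 h MYC, a repressor of CDKN1A, rose by 0.75, KLF6, reported to induce CDKN1A, by 0.75, and ID1, a repressor of CDKN2A, fell by 1.20 on the log2 scale. With ciclopirox at 8 h MYC rose by 0.89 and FOXO4 fell by 0.86 on the log2 scale, and at 24 h MYC (0.59) and MDM2, which this list also holds, rose.

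Proliferation genes fell at 24 h of crizotinib in 13 of 15 with none higher (median -0.70), against 14.1% of all genes lower. Of the 15, 1 was not above background in 1 or both groups. With a bound or no change in its place the median was -0.67. The falls were led by RRM2 (-1.52), the small subunit of ribonucleotide reductase, and the phosphatase CDC25A (-1.38), an activator of CDK2. At 8 h of crizotinib 5 of the 15 rose and none fell, among them the proliferation antigen MKI67 (0.66) and the mitotic kinase AURKB (0.65). At 24 h of ciclopirox 2 fell, the spindle checkpoint kinase BUB1 (-0.95) and the replicative helicase subunit MCM5 (-0.49), and at 8 h of ciclopirox none was called. CDKN3 itself was higher at 8 h and lower at 24 h of crizotinib (0.60 and -0.65).

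**Figure D3:**
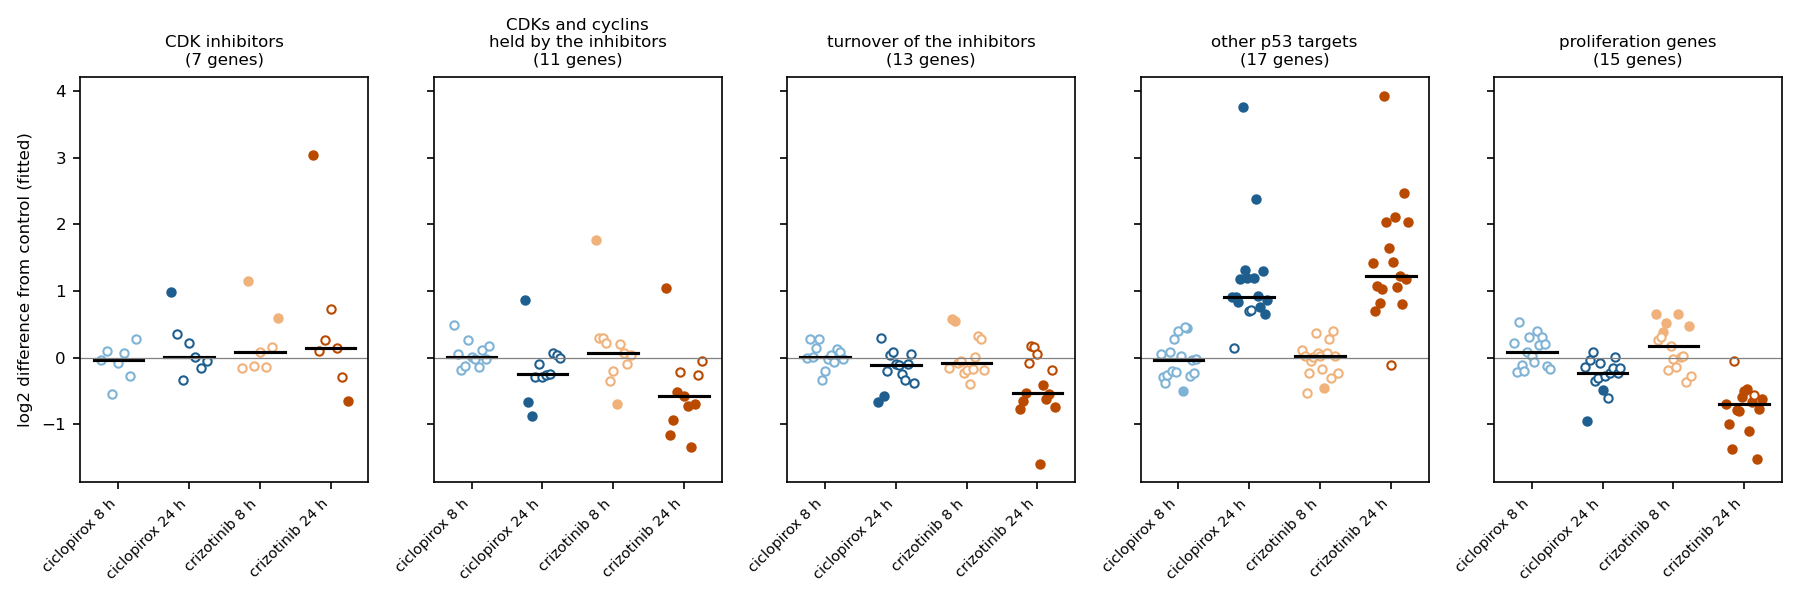
Fitted log2 difference from control of each gene in 5 lists after 8 h and 24 h of each drug. Filled points have an adjusted p under 0.05 and black lines are list medians. The other p53 targets stand high at 24 h of both drugs (medians 0.92 and 1.23), and the proliferation genes low at 24 h of crizotinib (-0.70), while the CDK inhibitors spread to both sides.

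Likeness of pattern was measured by Pearson's r over the 12 arrays against 10329 other genes, for the members with a called log2 difference from control of at least 1. Nearest to CDKN1A were the lysosomal glycoprotein CD68 (r = 0.979), the small GTPase RAB17 (0.978) and CIMIP2C (0.976). CD68 read 442 on both controls, 566.5 on both arrays at 24 h of ciclopirox and 953 to 986 at 24 h of crizotinib. Nearest to CDKN1B probe ILMN_1722811 were NUMA1, a spindle pole protein (r = 0.934), SARNP, an RNA export protein (0.91), and CDC25B, a phosphatase that activates CDK1 (0.906). NUMA1 read 731 to 810 at 8 h of crizotinib and 571 to 658 on all other arrays. Among the members themselves CDKN1A and CDKN3 had a negative correlation (r = -0.87). CDKN1A was above background on only 4 of the 12 arrays, those at 24 h. At 24 h of ciclopirox, where CDKN1A was called higher, CDKN3 was not called lower (log2 -0.06, limma adjusted p = 0.81). The arrays share a cell line, a chip and their groups, so these values describe likeness only.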

How the data were processed

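RNA of A375 cells was hybridised to Illumina bead arrays, 12 in all, and the scans were processed with GenomeStudio, per the submitters' processing notes. The deposited value table holds a normalized intensity per probe (12.0 to 38210, array medians 28.3 to 29.6) on a linear scale. How they were normalized is stated in no label or header used here. The deposited scanner table holds an unnormalized intensity and a detection p-value per probe, per the file headers, with 28.8% of the intensities below 0. Samples were grouped by their titles. The number of arrays limits the precision.

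Log2 values were fitted with limma 3.58.1 in R 4.3.3, as a mean per group over all 12 arrays (7 residual degrees of freedom, no block), with Benjamini-Hochberg adjustment over the 16563 tested probes in each of 9 comparisons. Probes were kept at a detection p under 0.01 on at least 2 arrays, a count that needs no column names. Probes were named from GEO's platform annotation: 27002 had 1 symbol, 4 had several and 11214 are unnamed here. Background was the 99th percentile over the 20196 never-detected probes, and a fold against a group below it is a lower bound. The fit was tested on simulated data.

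All listed members were named. From each list up to 4 called genes with the largest log2 change were named per comparison, and for each member with a called change of at least 1 against control the 3 genes of highest correlation. For the pocket protein and E2F genes at 24 h of crizotinib all called genes were named. Members and lists were chosen with earlier results of these data known. The alternatives were no detection filter, only the groups compared, a replicate block, median-centred arrays, an offset of 32 before log2, the 95th percentile as background threshold, each array left out, and the scanner signals (neqc, offset 16) named by the descriptions. Same-numbered arrays of different groups did not deviate together (r from -0.09 to 0.08 over 21 pairs), so replicate numbers were not taken as pairs. In a group of 2 arrays the deviations from the mean mirror each other. Pairs between such groups therefore repeat a value, and the 21 are not independent. CDKN2C is not analysed here.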

Additional observations from a re-analysis of the deposited data

Results flagged for a closer look

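The change from 8 h to 24 h was tested for a difference between the drugs, where control arrays enter only the estimate of the spread. Of the 8 CDK inhibitor probes 4 passed it (limma, adjusted over all probes, where 8.20% of all probes passed). For CDKN1A the fitted value was 2.17 on the log2 scale (crizotinib minus ciclopirox, adjusted p = 0.00196), which is no measured size because both 8 h groups were below background. The difference at 24 h, with both groups above background, was 2.05 ± 0.22 (SE). CDKN1B (probe ILMN_1722811) gave -1.30 ± 0.23 (adjusted p = 0.00897), and the other CDKN1B probe -0.62 (adjusted p = 0.356). CDKN3 gave -0.91 ± 0.15 (adjusted p = 0.00594) and held without any 1 of the 10 arrays. CDKN2D gave -0.57 ± 0.14 (adjusted p = 0.0385), which was called in only 1 of the 10 fits that left out an array, the one without ciclopirox 8 h replicate 1 (adjusted p up to 0.122).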

How the results depend on the processing

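Of 20 called CDK inhibitor results 11 held under every alternative on the value table, and none turned direction there. Counts of called CDK inhibitor probes are given first and of all probes second. Without the detection filter, ciclopirox 24 h against control gave 0 and 327, crizotinib 8 h against control 1 and 238, and crizotinib against ciclopirox at 8 h 1 and 377. All-probe counts there were 332 for ciclopirox 8 h and 2495 for crizotinib 24 h against control, 1056 and 3656 for 24 h against 8 h of ciclopirox and crizotinib, 1694 between the drugs at 24 h and 476 for the difference of time changes. With only the groups compared, ciclopirox 24 h gave 0 and 85 and crizotinib 8 h 1 and 95 against control, ciclopirox over time 0 and 1461, and the drugs 1 and 668 at 8 h and 1 and 1510 at 24 h. Ciclopirox 8 h and crizotinib 24 h against control gave 487 and 2824 probes. With the replicate block, 846 and 691 probes were called at 8 h of ciclopirox and crizotinib against control, and the calls of CDKN1B probe ILMN_2196347 (24 h against 8 h of crizotinib, adjusted p = 0.0598) and of CDKN2D (difference of time changes, 0.0657) were lost. With log2(value + 32) ciclopirox over time gave 2 CDK inhibitor probes.

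With the scanner signals under the descriptions' names, 224 probes (1 of a CDK inhibitor) were called at 8 h of ciclopirox against control, 2945 (3 of CDK inhibitors) between the drugs at 8 h and 0 in the other 7 comparisons. CDKN1A then gave 2.32 at 8 h of ciclopirox and -0.44 at 24 h of crizotinib against control, -2.11 and -0.16 for 24 h against 8 h of ciclopirox and crizotinib, and -2.60 (adjusted p = 0.00733) and -0.65 between the drugs at 8 h and 24 h. CDKN3 gave 0.23 at 24 h of crizotinib and CDKN2A -0.12 for 24 h against 8 h. The cause was not tested beyond the mismatch of names.

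Leaving out 1 array gave, against control, 0 and 184 to 659 at 8 h of ciclopirox, 0 to 1 and 384 to 721 at 24 h, 1 to 2 and 184 to 915 at 8 h of crizotinib, and 2 to 3 and 2477 to 3030 at 24 h. Over time it gave 1 and 1298 to 1814 for ciclopirox and 4 to 5 and 3297 to 5056 for crizotinib. Between the drugs it gave 1 to 2 and 514 to 742 at 8 h, 1 to 3 and 1681 to 2491 at 24 h, and 3 to 4 and 589 to 1273 for the difference of time changes. A lone array in a group is then assumed to vary like the other groups.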
